A study of Mus musculus with 12 samples.

Results

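The genes described here are the messages for the proteins of the mitochondrial ribosome, as they stood in axons and in cell bodies of cultured mouse motoneurons. Members were the protein-coding genes whose symbol begins with Mrpl or Mrps and a number, which gave 77 of 39174 genes in each table, and 22736 of all genes were protein coding. By name 47 belong to the large subunit and 30 to the small subunit. The study prepared 6 axonal and 6 somatodendritic libraries of total RNA from cultured primary motoneurons of CD-1 mice, all with Smn knocked down, grown in microfluidic chambers that keep axons apart from cell bodies and dendrites. Both groups carry the knockdown and no unperturbed library was analysed here, so the only comparison is between the compartments. Whether the replicates come from separate cultures is not stated in the labels, and p-values then cover only the spread among these samples, which may be technical. In bulk RNA of this kind, fewer cells of a type and less RNA per cell cannot be told apart.

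The mitochondrial ribosome translates the few proteins that mitochondrial DNA encodes, all of them parts of the oxidative phosphorylation complexes. Its rRNAs are made inside the organelle, while every one of its proteins is encoded in the nucleus, made on cytosolic ribosomes and imported. Some of these proteins descend from bacterial ribosomal proteins and others are found only in mitochondria. In axons, mitochondria can lie far from the cell body, and nuclear-encoded mitochondrial messages are among those known to be carried into axons and translated there.

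The members are spread over 17 chromosomes of the GRCm38 build, with 10 on chromosome 11 and 9 on chromosome 17. They share promoter letters to a degree that the choice by name did not use. A RefSeq window (GRCm38.p6) from 250 bases before to 50 bases after the transcription start was found for 67 members, 73 windows in all. The letters GCGC and TGCGC with 1 base of any kind between them, bound by the nuclear respiratory factor NRF1, stood on either strand in 16.4% of these windows, against 6.57% of the windows of protein-coding genes in the tables and 4.6% of all windows. For CCGGAAGT, the core of sites for ETS factors such as GABP, the shares were 16.4% of member, 5.2% of protein-coding and 3.89% of all windows. For AAGATGGCG, read by YY1, they were 11% of member, 1.9% of protein-coding and 1.4% of all windows. Of the 8 member windows with these letters most held them reaching or past the start, as only 2 members had them wholly before it. One or more of the 3 stood in 41.1% of the member windows, against 12.8% of protein-coding and 9.24% of all windows. The median GC content was 58.3% in member, 57% in protein-coding and 52.7% in all windows. A match is a description of the letters and not a binding site, and these 3 motifs, of which none contains another, were kept after several patterns had been looked at.

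The 250 bases before the start are printed for 4 members described below, a pair with the NRF1 letters and a pair with the ETS letters, to show where the letters stand in these genes. Within these 250 bases the NRF1 letters stood in 9 members and began between -125 and -28 (median -82 of 10 matches). The ETS letters stood there in 10 members and began between -240 and -11 (median -42 of 10 matches). The ETS pair thus lies nearer the start than most of these upstream matches. Matches that reach or lie past the start count in the shares above but not in these positions. Capitals mark the motif, positions count back from -1 just before the RefSeq start, and each line reads 5′ to 3′ along the gene's own strand. Mrps21 lies on the minus strand (window chr3:95871515-95871764, motif from -91) and Mrpl17 also on the minus strand (chr7:105811088-105811337, motif from -49, in its reverse complement). Mrpl3 lies on the plus strand (chr9:105053018-105053267, motif from -19) and Mrps22 on the minus strand (chr9:98601680-98601929, motif from -11).
Mrps21: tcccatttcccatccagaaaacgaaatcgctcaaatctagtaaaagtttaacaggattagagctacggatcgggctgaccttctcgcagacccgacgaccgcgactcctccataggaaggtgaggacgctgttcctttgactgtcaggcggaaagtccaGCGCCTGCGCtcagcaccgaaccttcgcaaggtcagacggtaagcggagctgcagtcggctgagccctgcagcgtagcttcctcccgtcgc
Mrpl17: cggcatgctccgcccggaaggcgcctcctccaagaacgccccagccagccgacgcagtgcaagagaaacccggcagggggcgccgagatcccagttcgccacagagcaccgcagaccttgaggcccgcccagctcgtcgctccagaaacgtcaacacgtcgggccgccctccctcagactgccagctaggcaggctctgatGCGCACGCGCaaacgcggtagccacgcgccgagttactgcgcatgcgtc
Mrpl3: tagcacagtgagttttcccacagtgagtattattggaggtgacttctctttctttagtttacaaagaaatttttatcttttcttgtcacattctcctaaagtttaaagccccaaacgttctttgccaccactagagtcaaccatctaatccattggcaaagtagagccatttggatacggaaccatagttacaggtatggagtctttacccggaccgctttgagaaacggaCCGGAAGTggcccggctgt
Mrps22: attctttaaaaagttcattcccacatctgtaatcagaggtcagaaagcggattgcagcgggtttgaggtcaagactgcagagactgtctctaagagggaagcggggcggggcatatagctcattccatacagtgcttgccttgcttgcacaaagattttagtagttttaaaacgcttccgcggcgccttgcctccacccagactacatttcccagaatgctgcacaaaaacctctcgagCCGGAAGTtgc

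Values are FPKM as the authors deposited them, that is fragments relative to transcript length and to sequencing depth, scaled between libraries by median-of-ratios factors (scaled FPKM). The libraries were shallow. From the confidence bounds that accompany the values, the depth came to between 217761 and 719981 fragments in the axonal libraries. In the somatodendritic libraries it came to between 254429 and 359926, apart from replicate 4 with 54755. Correlations across genes between libraries of one group (Pearson's r of log2 values) were 0.583 to 0.789 for axons and 0.618 to 0.852 for the somatodendritic side. Summed markers of neurons in general reached 1101 to 1453 scaled FPKM on the axonal side and 1205 to 1744 on the somatodendritic side. The defining motoneuron markers Mnx1 and Chat were at 0 in all 12 libraries, and Isl1 was above 0 in 1 axonal and 3 somatodendritic libraries. The motoneuron list, with 5 of its 7 genes in the tables above 0 anywhere, summed to at most 9.68 in axonal and 5.79 in somatodendritic libraries. Summed astrocyte and radial glia markers reached 19.7 to 346 in the axonal group and 156 to 239 in the somatodendritic group. Oligodendrocyte lineage markers reached 4.58 to 43.7 in the axonal group and 8.74 to 50.1 in the somatodendritic group, and microglia markers 0.282 to 43.9 in the axonal group and 2.31 to 21.4 in the somatodendritic group. Fibroblast, endothelial and Schwann cell markers stayed at or below 6.62 in axonal and 6.11 in somatodendritic libraries, with the fibroblast gene Dcn at 0, and muscle markers at or below 6.95 in axonal and 27.0 in somatodendritic libraries. The part of other cells in the values below was not tested. The knocked-down gene itself, Smn1, read 8.60, 16.8, 0, 7.30, 54.1 and 6.06 scaled FPKM in the axonal libraries in replicate order, and 4.12, 0, 0, 0, 15.0 and 0 in the somatodendritic ones. With no unperturbed library to compare, this does not check the knockdown.

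Messages for the mitochondrial ribosome were present in all 6 axonal libraries. No member was at 0 throughout, and 30 of the 77 were above 0 in all 12 libraries. Over all genes 5607 were above 0 in all 12, beside 13914 genes tested, so the 30 are not read as a feature of the members. Axonal replicates 1 to 6 listed 76, 57, 64, 68, 69 and 70 members above 0. Somatodendritic replicates 1 to 6 listed 69, 70, 74, 38, 76 and 71. The groups overlapped, and somatodendritic replicate 4, the shallowest library, stood far below the rest. It also listed only 55.2% of all tested protein-coding genes above 0, against 83.8 to 97.1% in axons and 86.2 to 91.2% in the other somatodendritic libraries. Without it, 42 members were above 0 in every library.

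Summed over the members, the level did not separate the compartments. In replicate order the axonal sums were 913, 1104, 1044, 1297, 1866 and 1181 scaled FPKM, and the somatodendritic sums were 949, 1146, 1467, 849, 1232 and 1078. The group means, 1234 ± 336 for axons and 1120 ± 218 for the somatodendritic side (SD, n = 6 each), differed by less than the spread between libraries. Axonal replicate 5 was the highest of all, and without it the axonal minus somatodendritic difference of 114 became -12.2. The sign of the difference also depended on the scaling, with -100.0 for FPKM as deposited and -24.8 for libraries brought to a common sum. RNA genes typed as misc_RNA, snRNA, snoRNA or rRNA took a larger share of FPKM in replicates 3 to 6 (12.9 to 22.01% in axons, 15.7 to 20.9% on the somatodendritic side) than in replicates 1 and 2 (5.61 to 8.68% in axons, 6.18 to 6.67% on the somatodendritic side), so both sets are given apart. Within replicates 1 and 2 the mean sums were 1009 for axons and 1047 for the somatodendritic side (n = 2 each). Within replicates 3 to 6 they were 1347 ± 361 for axons and 1156 ± 260 for the somatodendritic side (SD, n = 4 each). As a share of the FPKM of all nuclear protein-coding genes, the members took 0.546 ± 0.164% in axonal and 0.557 ± 0.0922% in somatodendritic libraries. The large-subunit sum was 792 ± 199 scaled FPKM in axons and 693 ± 128 on the somatodendritic side. The small-subunit sum was 442 ± 141 in axonal and 427 ± 97.3 in somatodendritic libraries.

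These levels rest on few fragments. Over all 77 members, axonal replicates 1 to 6 held about 676, 128, 103, 200, 220 and 202 fragments, and somatodendritic replicates 1 to 6 held about 289, 240, 212, 15.6, 177 and 136. These are equivalents worked back from the deposited confidence bounds, which are wider for genes with several isoforms, so the figure for such genes is too low. Only 4 members have 1 transcript in GENCODE M21, so this touches most of them. Mrpl2, with 5 transcripts, was above 0 in all 12 libraries with 2.44 axonal and 1.03 somatodendritic equivalents. The median listed member had between 1.18 and 6.33 fragment equivalents in the axonal libraries and between 0.246 and 2.36 in the somatodendritic ones. Over all libraries together a member had a median of 22.5, from 2.86 to 163, and 18 members had under 10. A listed 0 is therefore no evidence of absence, and genes with a 0 are given library by library.

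The most abundant messages, per length and as the mean over both groups, came from both subunits. Mrps21, a small-subunit protein with a bacterial homologue, read 46.5, 80.3, 71.6, 102, 111 and 29.0 scaled FPKM in axons, in replicate order. On the somatodendritic side it read 28.8, 82.2, 67.1, 67.9, 68.0 and 44.1. The lowest libraries of both groups stood within 1 unit of each other, and the groups overlapped over most of their range. Mrpl42, a large-subunit protein without a bacterial homologue, had 46.1, 84.8, 53.8, 133, 87.5 and 41.9 in axonal and 40.5, 44.6, 65.3, 12.4, 62.9 and 42.7 in somatodendritic replicates 1 to 6. Axonal replicates 2, 4 and 5 lay above every somatodendritic library, and its lowest value came from the shallow somatodendritic replicate 4. Mrpl41 averaged 47.1 ± 20.3 in axons and 41.8 ± 21.7 on the somatodendritic side. Mrpl17, a homologue of bacterial L17, averaged 46.7 ± 21.1 in axons and 39.0 ± 12.2 on the somatodendritic side (SD, n = 6 each). Mrpl34 averaged 31.6 ± 9.42 in axons and 32.2 ± 16.1 on the somatodendritic side. In each of these 5 genes the group means differed by less than the larger SD of its libraries, and neighbours in the order of levels did not differ beyond that spread. Mrpl33 was at 0 in axonal replicate 3, from 23.3 to 73.7 in the remaining axonal libraries and from 10.9 to 62.0 in the somatodendritic ones. Its locus in the tables overlaps the genes Rbks and Bre, so its value is uncertain. Mrps18a and Mrps18c, described with their relatives below, complete the 8 members of highest mean.

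**Figure D1:**
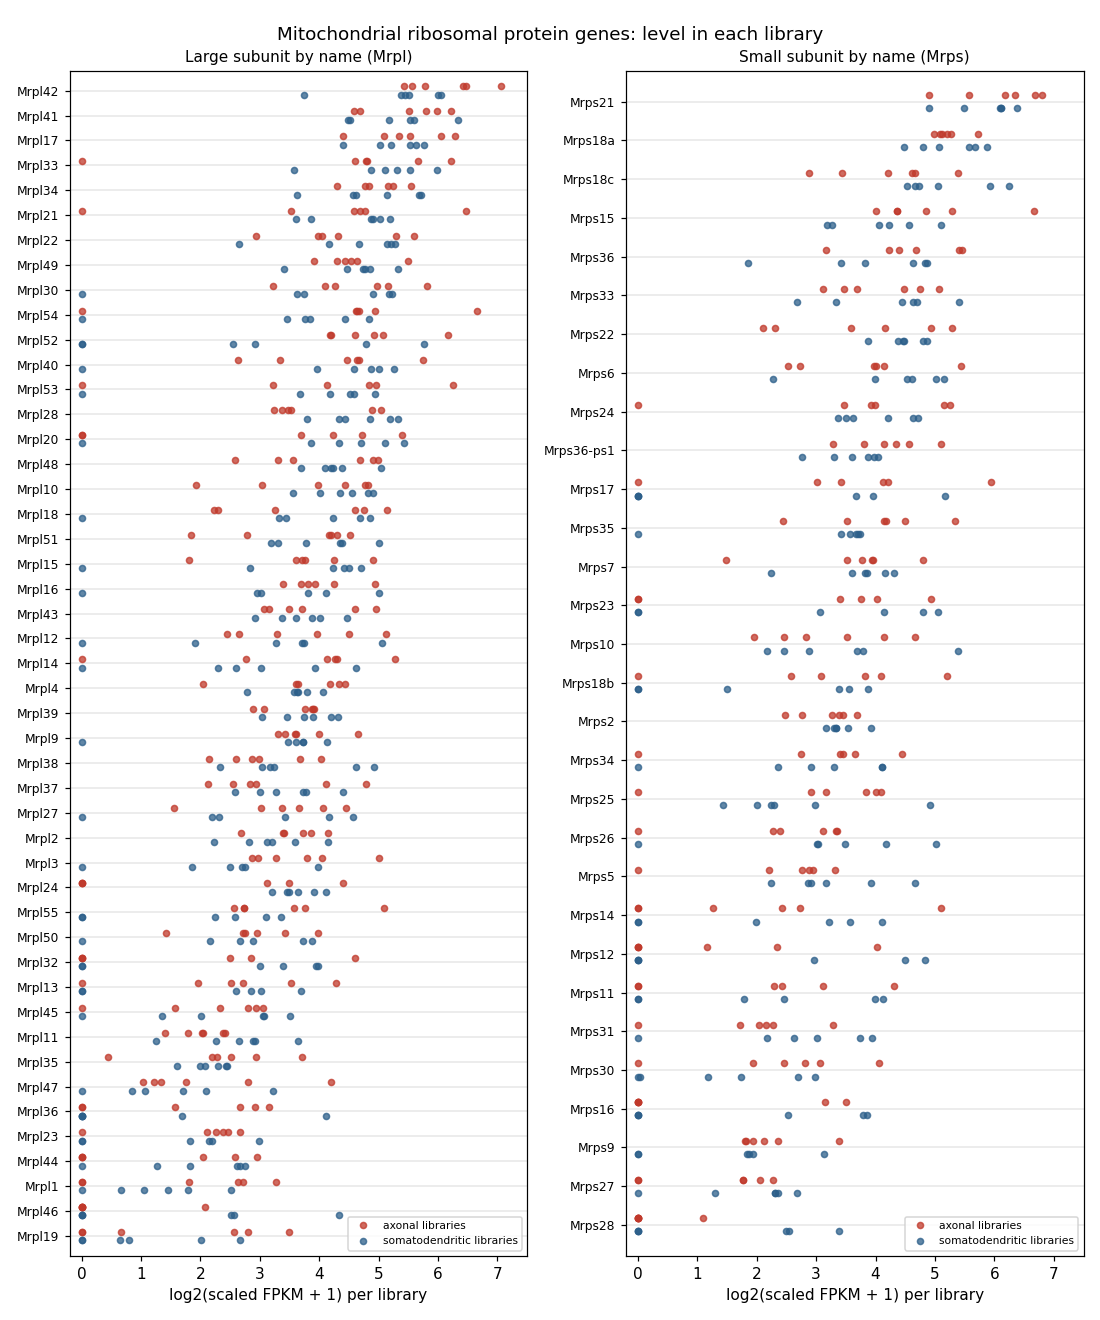
Level of each member in each library as log2(scaled FPKM + 1), large-subunit names on the left and small-subunit names on the right, ordered by the mean over all libraries, with axonal points drawn just above somatodendritic points. The ranges of both groups overlap in all 77 rows, from Mrps21 and Mrpl42 at the top to Mrpl46 and Mrps28 near the bottom, where most points are at 0.

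No member passed the test between the compartments. With limma on log2(scaled FPKM + 1), Benjamini-Hochberg adjusted over 13914 genes at 0.05, 1 gene was called in all (0.00719%) and 0 of the 77 members, whose smallest adjusted p was 0.486. The count of members called was also 0 in each of 26 alternative fits, libraries left out included. At an unadjusted p under 0.05 there were 5 members (6.49%), 3 higher and 2 lower in axons, against 8.9% of all genes tested. In no member did the 6 axonal and 6 somatodendritic libraries separate without overlap, which 0.712% of all genes did. All 77 members passed the filter on low values. Those nearest to it were Mrps28, with a mean deposited FPKM of 1.72, and Mrpl1, with 2.54, and no member lay outside.

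The members' fold changes were centred near those of other genes. Of the 77, 40 (51.9%) had a log2 fold change above 0, against 60.6% of all genes tested, and their median was 0.12, which is 0.06 below the median of all genes of 0.18. The large-subunit names lay 0.03 above the median of all genes, with 29 of 47 above 0 and a median of 0.21. The small-subunit names lay lower, with 11 of 30 above 0 and a median of -0.12, or -0.29 relative to all genes. Sorting by position in the solved structure moves Mrps18a and Mrps30, small-subunit by name, to the large subunit, and takes Mrps36 and Mrps36-ps1 out of both. Then 30 of 49 large-subunit and 8 of 26 small-subunit genes were above 0, with medians of 0.21 and -0.19. The order of the subunits by name turned within replicates 1 and 2, at -0.25 for the large and -0.10 for the small subunit relative to all genes. Without axonal replicates 1 and 2 and somatodendritic replicate 4 they were nearly equal, at -0.09 for the large and -0.13 for the small subunit. Each library also has a median log2 level of the members relative to all genes. Between libraries of a group its SD was 0.86 for the large and 0.61 for the small subunit, and both offsets are smaller. The spread rests largely on somatodendritic replicate 4. Without it the SD was 0.31 for the large and 0.45 for the small subunit, with offsets of -0.05 and -0.35, still smaller. This SD describes single libraries and not the error of a difference between group means, so it does not decide whether an offset differs from 0. The difference between the subunits was not tested. The 45 members with a bacterial homologue (24 above 0, median 0.13) and the 29 found only in mitochondria (14 above 0, median -0.04) overlapped over most of their range. The 23 members with at least 40 fragment equivalents ran from -0.74 to 0.86, with 14 above 0 and a median of 0.13. Their median 95% interval reached 1.01 to either side on the log2 scale, against 1.38 over all members, so differences smaller than these were mostly not detectable at this depth. The intervals are not adjusted for the number of genes tested. Larger differences also failed the test, such as 2.19 for Mrpl52 (limma adjusted p = 0.486).

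**Figure D2:**
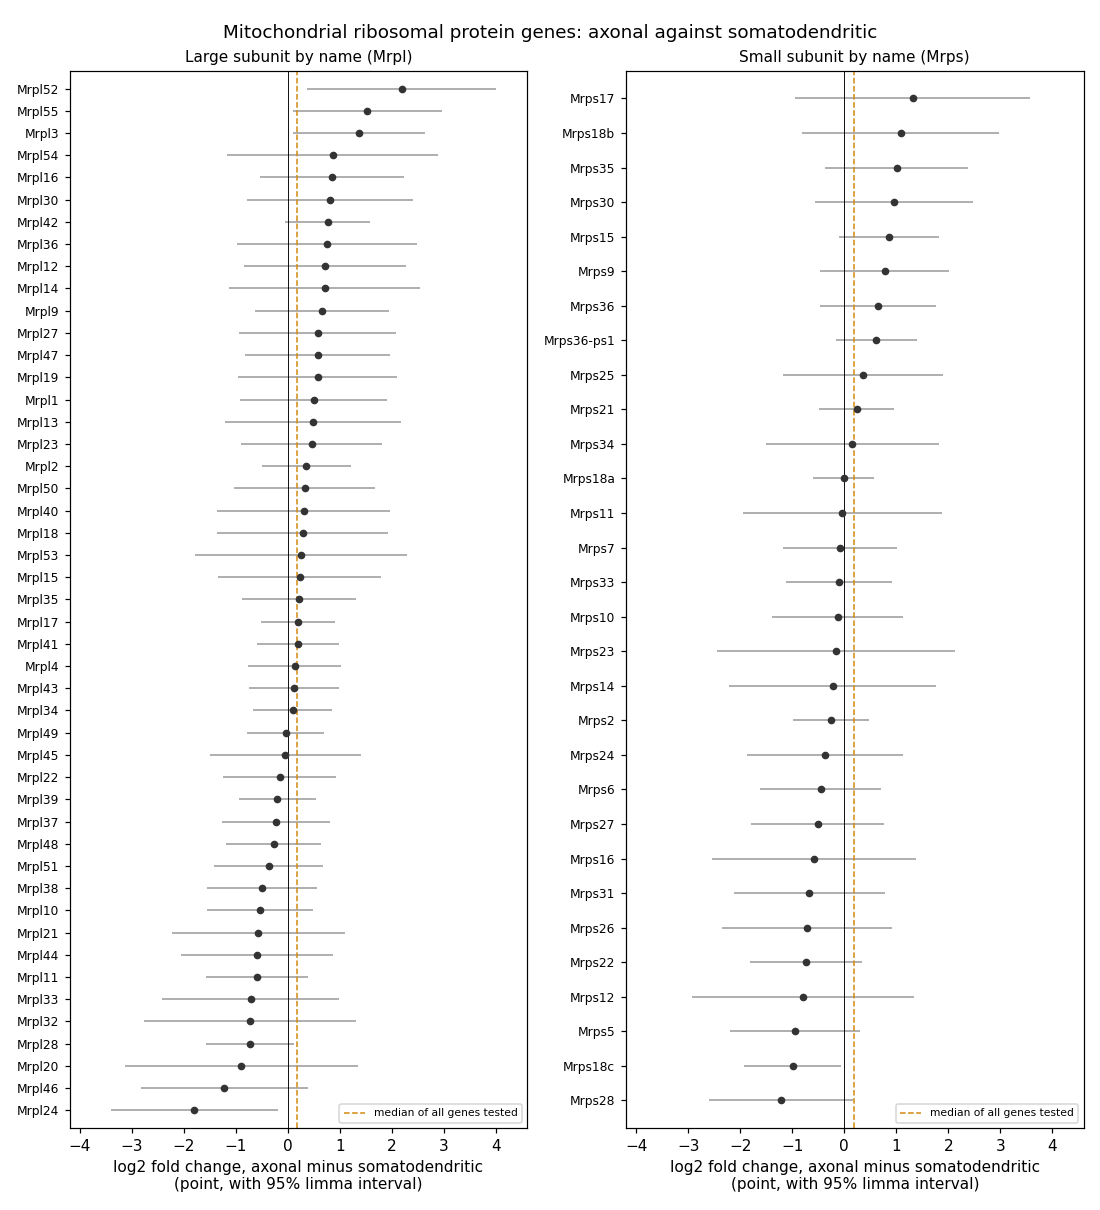
Axonal minus somatodendritic log2 fold change of each member with its 95% limma interval, large-subunit names on the left and small-subunit names on the right, and a dashed line at the median of all genes tested (0.18). The points run from -1.80 (Mrpl24) to 2.19 (Mrpl52), and all but 5 intervals span 0.

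**Figure D3:**
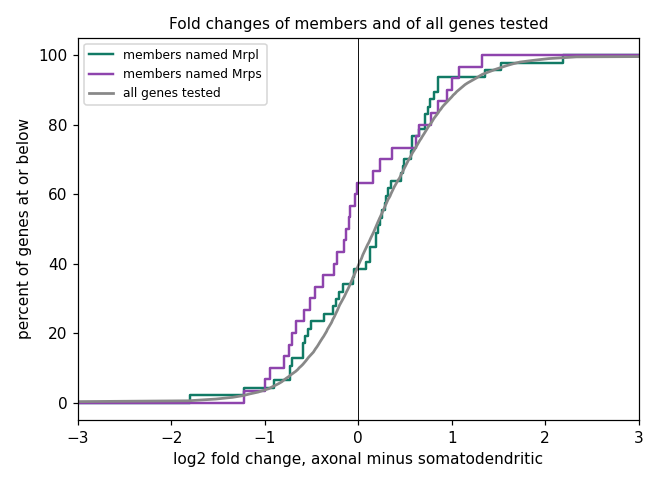
Percent of genes at or below each log2 fold change, axonal minus somatodendritic, as steps for the 47 Mrpl and 30 Mrps members and as a line for the 13914 genes tested. The Mrpl steps follow the line of all genes, and the Mrps steps lie to its left in the middle of the range, with 19 of 30 members below 0.

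The 5 members of smallest p with higher axonal values came mostly from the large subunit. Mrpl52, a large-subunit protein found only in mitochondria (chromosome 14, 54426909 to 54429750), read 17.3, 29.4, 23.2, 17.2, 32.6 and 71.3 scaled FPKM in axons in replicate order. The somatodendritic libraries read 4.85, 6.56, 53.5, 0, 26.5 and 0. All 6 axonal libraries held it, and the groups overlapped through somatodendritic replicates 3 and 5 (axonal minus somatodendritic log2 fold change 2.19, SE 0.86, with a limma adjusted p of 0.486). The log2 fold change was 1.65 without the shallow somatodendritic replicate 4. Mrpl3, whose bacterial counterpart L3 lies near the peptidyl transferase centre (chromosome 9, 105053239 to 105077466), had 8.64, 31.0, 15.4, 6.87, 12.9 and 6.32 in axonal and 5.74, 4.62, 2.64, 0, 5.54 and 14.7 in somatodendritic libraries. Each axonal value lay above 5 of the 6 somatodendritic ones, and somatodendritic replicate 6 lay above 4 of the axonal ones (1.36 ± 0.60 SE, limma adjusted p = 0.531). Without somatodendritic replicate 4 its log2 fold change was 0.90. Mrpl55, another mitochondria-specific protein (chromosome 11, 59202486 to 59206134), had 5.62, 5.62, 33.3, 4.93, 12.5 and 10.9 in axonal and 7.57, 3.76, 0, 0, 9.20 and 5.01 in somatodendritic libraries. The groups overlapped between 4.93 and 9.20 (1.53 ± 0.68 SE, limma adjusted p = 0.535). Replicates 1 and 2 alone gave a log2 fold change of 0.05, and replicates 3 to 6 alone gave 2.27.

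For Mrpl42, whose levels are given above (chromosome 10, 95480806 to 95501927), the log2 fold change was 0.76 ± 0.39 SE (limma adjusted p = 0.592), and 0.44 without somatodendritic replicate 4. Mrps15, a homologue of bacterial S15, which binds the small-subunit rRNA (chromosome 4, 126046925 to 126055532), had 19.6, 38.1, 19.7, 15.1, 100.7 and 27.8 in axonal and 33.2, 8.65, 15.7, 17.7, 22.8 and 8.10 in somatodendritic libraries. Axonal replicate 5 stood apart, and the other 5 lay within or just above the somatodendritic range (0.86 ± 0.46 SE, limma adjusted p = 0.604), and without that library the log2 fold change was 0.51.

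The 5 members of smallest p with lower axonal values were of both subunits, and 3 of them rest on libraries listed at 0. Mrpl24, whose bacterial counterpart L24 helps to start assembly of the large subunit (chromosome 3, 87919506 to 87923672), read 7.71, 0, 0, 0, 20.1 and 10.3 scaled FPKM in axons in replicate order. All 6 somatodendritic libraries held it, at 14.1, 11.5, 9.98, 8.20, 16.3 and 10.2. The axonal values thus ran from 0 in 3 libraries to the highest of all 12, around a narrow somatodendritic range (-1.80 ± 0.76 SE, limma adjusted p = 0.513). The gene overlaps Rrnad1. Mrps18c, one of 3 relatives of bacterial S18 (chromosome 5, 100798627 to 100804471), had 9.78, 6.33, 23.5, 24.5, 41.1 and 17.5 in axonal and 24.4, 25.4, 75.1, 32.1, 22.1 and 60.1 in somatodendritic libraries. The 3 lowest axonal values, in replicates 1, 2 and 6, and the 2 highest somatodendritic values, in replicates 3 and 6, lay outside the other group's range (-0.99 ± 0.44 SE, limma adjusted p = 0.53). Without axonal replicates 1 and 2 its log2 fold change was -0.47. Mrpl28, a homologue of bacterial L28 (chromosome 17, 26123520 to 26126613), had 9.35, 28.5, 31.9, 10.1, 10.6 and 8.41 in axonal and 19.1, 20.6, 28.1, 39.0, 35.7 and 12.8 in somatodendritic libraries. Axonal replicates 2 and 3 lay within the somatodendritic range and the other 4 below it (-0.73 ± 0.40 SE, limma adjusted p = 0.604).

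Mrps28 and Mrpl46 were at 0 in most libraries. Mrps28 (chromosome 3, 8802146 to 8923918) read 1.14 in axonal replicate 1 and 0 in the remaining 5 axonal libraries. On the somatodendritic side, replicates 3, 5 and 6 read 9.39, 4.65 and 4.85 and the rest 0. About 1 fragment in axonal and 3.99 in somatodendritic libraries stand behind it (-1.22 ± 0.65 SE, limma adjusted p = 0.604). Mrpl46, a mitochondria-specific protein (chromosome 7, 78775236 to 78783531), read 3.21 in axonal replicate 1 and 0 in the remaining 5, and 19.1, 4.74 and 4.94 in the same somatodendritic replicates (-1.23 ± 0.76 SE, limma adjusted p = 0.648, and -0.67 without somatodendritic replicate 3). In both genes the libraries above 0 were the same 4. With pseudocounts of 0.1 and 5 in place of 1 the fold change of Mrps28 was -2.36 and -0.53, so its size is set by the pseudocount. Mrpl46 overlaps Mrps11 at their 5′ ends on opposite strands. Whether counting used the strand is not stated in the labels or headers, so reads from stretches that overlapping genes share may not be told apart. The loci of 22 members overlap another protein-coding gene, and whether their exons overlap was not checked.

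Genes for the site where translation factors enter had overlapping values in both compartments. Mrpl10 and Mrpl12 form the flexible stalk that recruits translation factors, and Mrpl11 sits at its base. Mrpl11 had 4.33, 4.201, 1.66, 2.46, 3.11 and 3.06 scaled FPKM in axonal and 1.39, 6.56, 6.38, 11.5, 3.79 and 5.27 in somatodendritic libraries. All axonal values lay within the somatodendritic range. Mrpl10 ran from 2.80 to 27.1 in axonal libraries (median 17.7) and from 10.7 to 29.1 in somatodendritic ones (median 20.9). Mrpl12 ran from 4.46 to 34.1 in axonal libraries (median 11.7), and in somatodendritic ones it was listed at 0 in replicate 4 and between 2.77 and 32.3 elsewhere. Around the peptidyl transferase centre, Mrpl2, Mrpl3, Mrpl16 and Mrpl27 all had fold changes above 0, from 0.35 to 1.36, of which Mrpl3 alone had an unadjusted p under 0.05. Somatodendritic replicate 4 listed Mrpl3, Mrpl16 and Mrpl27 at 0, and without it the values were 0.90 for Mrpl3, 0.22 for Mrpl16, 0.02 for Mrpl27 and 0.54 for Mrpl2, none with an unadjusted p under 0.05. As 60.6% of all genes tested lay above 0, and 54.04% without that library, nothing is read from the shared sign of 4 genes grouped after their values were seen. Along the exit tunnel, 2 of 5 genes had fold changes above 0, from -1.80 for Mrpl24 to 0.46 for Mrpl23, which was at 0.15 without somatodendritic replicate 4.

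In the small subunit, some genes with bacterial homologues were listed at 0 in many libraries. Mrps12, whose bacterial counterpart S12 monitors codon pairing, read 1.23, 0, 0, 0, 15.2 and 4.07 scaled FPKM in axons, in replicate order, and 0, 6.80, 21.5, 0, 27.6 and 0 on the somatodendritic side. Mrps14 read 1.41, 0, 0, 5.60, 33.4 and 4.36 in axonal and 2.97, 8.28, 10.9, 0, 16.2 and 0 in somatodendritic libraries. Each compartment thus held both genes in some libraries and listed them at 0 in others. Mrps16, which in humans is among the genes mutated in combined respiratory chain deficiency, read 7.92 and 10.4 in axonal replicates 5 and 6 and 0 in the remaining 4. Somatodendritic replicates 2, 5 and 6 read 4.77, 12.9 and 13.4, and the remaining 3 read 0. Mrps22, another gene of such deficiencies in humans, was above 0 everywhere, at 11.02, 3.33, 3.94, 37.95, 29.6 and 16.9 in axonal and 19.8, 26.7, 21.2, 13.7, 21.01 and 28.1 in somatodendritic libraries. Its axonal values lay on both sides of the narrower somatodendritic range. With at least 40 fragment equivalents over all libraries, it is among the better measured members by that count, which is too low for genes with several isoforms.

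The S18 relatives occupy different places in the mitochondrial ribosome. Mrps18a, which lies in the large subunit, had 33.6, 33.0, 30.8, 52.2, 37.6 and 36.0 in axonal libraries. Its somatodendritic libraries ran from 21.4 in replicate 1 to 57.4 in replicate 3, with a median of 39.6. All 6 axonal values lay within the somatodendritic range. Mrps18b was at 0 in axonal replicate 4 and from 4.96 to 35.9 in the rest of the axonal group. It was at 0 in somatodendritic replicates 3 and 4 and from 1.82 to 13.6 in the rest. With Mrps18c, described above, the log2 fold changes of the relatives ran from -0.99 for Mrps18c through -0.01 for Mrps18a to 1.08 for Mrps18b, which was at 0.67 without somatodendritic replicate 4.

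Mrpl44, an RNase III-like protein at the edge of the large subunit, read 3.13, 6.71 and 4.97 in axonal replicates 1, 3 and 4 and 0 in the remaining 3. On the somatodendritic side it was at 0 in replicate 4 and from 1.404 to 5.69 elsewhere. Mrpl54 was at 0 in axonal replicate 2 and at 99.5 in axonal replicate 5, with the remaining 4 from 23.4 to 29.5. Somatodendritic replicate 4 listed it at 0, and the rest read from 9.93 to 27.7. Both genes overlapped between the groups. Mrps36, a subunit of the 2-oxoglutarate dehydrogenase complex, is a member by name and was placed in neither ribosomal subunit by position. It ran from 7.95 to 42.8 in axonal libraries (median 22.2) and from 2.62 to 28.0 in somatodendritic ones (median 18.4). Mrps36-ps1 is typed as protein coding in the tables though its symbol marks a pseudogene of Mrps36. It ran from 8.79 to 33.2 in axonal (median 17.97) and from 5.76 to 15.5 in somatodendritic libraries (median 12.4), and how reads were divided between it and Mrps36 is not stated.

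The other nuclear genes of mitochondrial translation were tested in the same fit, and none was called. Of 6 mitoribosomal proteins that do not carry an Mrp symbol (Dap3, Ptcd3, Chchd1, Aurkaip1, Gadd45gip1 and Ict1), 4 had log2 fold changes above 0 and the median was 0.14. Of 14 translation factors and associated genes (Oxa1l and Lrpprc among them), 6 were above 0 and the median was -0.20. Of 25 genes for assembly and rRNA modification, 17 were above 0 and the median was 0.36. Of 21 genes for charging mitochondrial tRNAs, 12 were above 0 (median 0.11), and of 12 genes for mitochondrial DNA and RNA synthesis, 7 were (median 0.11). The 21 are aminoacyl-tRNA synthetases, with Gars and Kars, which also serve the cytosol, and the amidotransferase genes Pet112, Gatc and Qrsl1. Over these 78 nuclear genes together, 46 were above 0 and the median was 0.16, which is 0.02 below that of all genes tested. Fastkd2, which binds the large rRNA and serves large-subunit assembly, averaged 17.1 ± 8.16 scaled FPKM in axons and 7.01 ± 2.46 on the somatodendritic side (SD, n = 6 each). Its groups overlapped, and the difference did not pass (1.10 ± 0.39 SE, limma adjusted p = 0.439). Ptcd3, a small-subunit protein, read 4.14, 1.56, 11.1, 2.74, 0 and 14.8 in axonal and 9.28, 6.79, 8.53, 22.4, 12.0 and 13.2 in somatodendritic libraries. Axonal replicates 1, 2, 4 and 5 lay below every somatodendritic library and the other 2 within their range (-1.41 ± 0.61 SE, limma adjusted p = 0.519).

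In axons the rRNAs of the mitochondrial ribosome ranged more widely between libraries than its summed protein messages. mt-Rnr1, the small-subunit rRNA, had 15791, 280187, 66844, 93834, 130857 and 40397 scaled FPKM in axons in replicate order. On the somatodendritic side it had 20734, 22791, 31344, 30477, 32244 and 29075. Every somatodendritic library lay below axonal replicates 2 to 6 and above axonal replicate 1 (1.41 ± 0.56 SE, limma adjusted p = 0.497). mt-Rnr2, the large-subunit rRNA, had 9368, 185438, 43522, 62199, 88924 and 28409 in axonal and 14891, 14655, 21949, 22866, 23650 and 21228 in somatodendritic libraries, and every somatodendritic library again lay between axonal replicate 1 and the other 5 (1.29 ± 0.58 SE, limma adjusted p = 0.549). The 13 mitochondrially encoded proteins all had log2 fold changes above 0 (median 1.33), against 60.6% of all genes tested. Of them 8 had an unadjusted p under 0.05, against 8.9% of all genes tested, and none was called (smallest limma adjusted p = 0.456). In each of the 13, as in both rRNAs, axonal replicate 2 was the highest and axonal replicate 1 the lowest axonal library. The 13 thus moved together by library and are not 13 separate observations. Without axonal replicates 1 and 2, mt-Co1, a subunit of cytochrome c oxidase, passed (1.42 ± 0.21 SE, limma adjusted p = 0.039), the only gene of these lists called in any alternative. The size of these differences depended on single libraries and on the scaling. With quantile normalization the log2 fold change was 0.36 for mt-Rnr1, 0.40 for mt-Rnr2 and 0.73 for the median of the 13 proteins. Without axonal replicate 1 the rRNAs were at 1.85 (mt-Rnr1) and 1.76 (mt-Rnr2). Without axonal replicate 2 the median of the 13 proteins was 0.84.

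Set against the members within each library, which needs no scaling between libraries, the log2 ratio of both rRNAs to the summed members was 4.78, 8.72, 6.72, 6.91, 6.88 and 5.86 in axons in replicate order. It was 5.23, 5.03, 5.18, 5.97, 5.504 and 5.54 on the somatodendritic side. Axonal replicates 2 to 5 lay above all somatodendritic libraries, replicate 6 within their range and replicate 1 below them. The means were 6.65 ± 1.30 for axons and 5.41 ± 0.34 for the somatodendritic side (SD, n = 6 each). Within replicates 3 to 6 they were 6.59 ± 0.49 for axons and 5.55 ± 0.33 for the somatodendritic side (SD, n = 4 each). Within replicates 1 and 2 they were 6.75 for axons and 5.13 for the somatodendritic side (n = 2 each). No test was run on this ratio. Axonal replicate 1 was also the deepest library and axonal replicate 2 held the fewest members above 0 of the axonal libraries, and the part of these properties in the ratio was not tested.

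**Figure D4:**
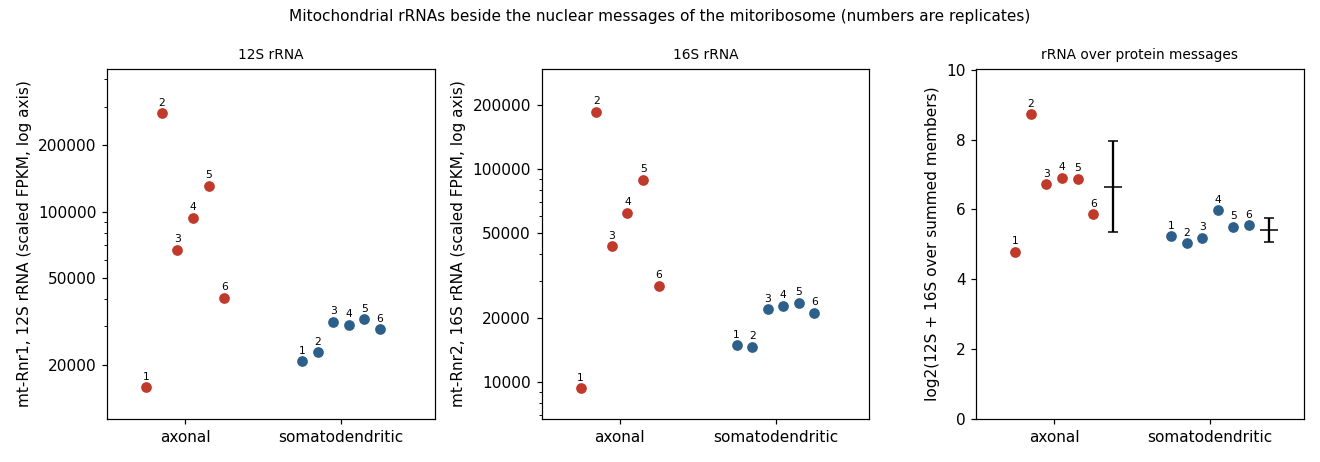
Scaled FPKM of mt-Rnr1 (left) and mt-Rnr2 (middle) on log axes, and the log2 ratio of their sum to the summed members (right), 1 point per library with its replicate number, and bars for the mean and SD of the 6 libraries of a group in the right panel. Axonal points spread from below to far above the somatodendritic points, with ratios of 4.78 to 8.72 in axons and 5.03 to 5.97 on the somatodendritic side.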

How the data were processed

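Tables of 12 libraries were used, 6 axonal and 6 somatodendritic, grouped and numbered by the sample titles. Per the file headers, the authors deposited FPKM per gene with confidence bounds, in the Cufflinks layout. The submitters' processing notes name Cufflinks 2.2.1, FastQC 0.10.1 and GRCm38. Neither labels nor headers state the aligner settings, annotation release, strand or handling of reads with several matches. Because FPKM is relative to the total of the library, abundant mitochondrial RNA lowers the values of all other genes.

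Scaling factors were medians of ratios, taken over the 5607 genes that no library lists at 0. Genes with a mean deposited FPKM of at least 1 were kept, 13914 in all. log2(scaled FPKM + 1) was tested with limma 3.58.1 in R 4.3.3 (two-sided, with a trend, robust moderation and a single term for the compartment) with Benjamini-Hochberg adjustment at 0.05, after a check on simulated data. On this scale the change of low genes is understated. Fragment equivalents are the squared ratio of FPKM to its SD, taking the upper bound to lie 2 SD above the value. In genes with 1 transcript and over 1000 exonic bases, 71.4 to 74.7% of the low equivalents lay within 0.02 of a whole number. This takes the bounds to reflect counting error only, so the equivalents come out too low where several isoforms widen the bounds.

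Of the member IDs, 76 of 77 were found in GENCODE M21, and coordinates are those of the tables with starts given 1-based. Symbols typed as pseudogenes were left out of the members. In the lists of other mitochondrial translation genes, 2 names had no match, Gtpbp5 (an older symbol of a listed gene) and Prorp. Python 3.11.15, numpy 2.4.6, pandas 2.3.3 and matplotlib 3.10.9 were used for the rest. The named genes were set by a rule. It took the 5 members of smallest p in each direction, the 8 of highest mean, members at 0 in most libraries, 14 members fixed by name, the members nearest the filter, the mitochondrial rRNAs, and the other mitochondrial translation gene of smallest p in each direction. Mrps36-ps1 and the examples by position in the ribosome were added after their values were seen. The members, the lists and the tests were chosen with earlier results of these data known. The alternatives tried were FPKM as deposited, a common sum, quantile normalization, pseudocounts of 0.1 and 5, no filter and one at 5, plain moderation, the replicate number as a block, a term for replicates 1 and 2 against 3 to 6, each of these sets alone, axonal replicates 1 and 2 left out with or without somatodendritic replicate 4, and each library left out.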

Additional observations from a re-analysis of the deposited data

Results flagged for a closer look

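In 74 groups of 6 libraries, 1 library stood apart from the other 5 in 12 cases, where its gap to the nearest other library, as a share of the group's range, passed Dixon's critical value for 6 samples. For normally distributed values chance gives about 1 such case in 20 groups. The gene values were scaled FPKM without a log, and every flagged gene value was the highest of its group. For Mrps28 and Mrpl46 only axonal replicate 1 listed the gene among axonal libraries, which passes the critical value by construction. The chance rate therefore need not hold here, and the 12 cases are not read as an excess over chance.

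Among the members with higher axonal values, the library that stood apart was axonal replicate 6 for Mrpl52 (71.3 scaled FPKM), replicate 2 for Mrpl3 (31.0), replicate 3 for Mrpl55 (33.3) and replicate 5 for Mrps15 (100.7). Axonal replicate 5 was also the high one for Mrpl54 (99.5), Mrps12 (15.2) and Mrps14 (33.4), and it has the highest sum over the members. Axonal replicate 4 was the high one for Mrps18a (52.2). Axonal replicate 1 was the single axonal library above 0 for Mrps28 (1.14) and for Mrpl46 (3.21), and it is also the deepest library. Somatodendritic replicate 3 was the high one for Mrpl46 (19.1). The count of members above 0 was set apart in somatodendritic replicate 4, with 38, which is also the shallowest library. The part of depth in these cases was not tested.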

How the results depend on the processing

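No member was called in any of 26 alternatives to the limma fit. Members with an unadjusted p under 0.05 numbered 2 to 7, and the smallest adjusted p of a member ran from 0.275 to 0.778. The number of genes called, 1 of 13914 in the fit reported, was 3 with a pseudocount of 0.1 and 3 with plain moderation. It was 6 with replicates 1 and 2 against 3 to 6 as a term, 6 within replicates 3 to 6, 8 without axonal replicates 1 and 2, and 5 without these and somatodendritic replicate 4. Within replicates 1 and 2 limma called 0 genes (708 with an unadjusted p under 0.05). With the replicate number as a block it was 5 and again no member. Same-numbered libraries deviated together with correlations from -0.00048 to 0.243, over 0.1 only for replicate 1, and 3 of 6 correlated best with their own number, so the numbers were not shown to pair the samples. Leaving out each library in turn gave 1 to 11 genes called, the most without axonal replicate 6, with 3 without axonal replicate 1 and 2 each without axonal replicates 2 and 4. The cause of these changes was not tested.

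The signs of the 10 named members held in all alternatives in which they were tested, except within replicates 1 and 2, where Mrps28 had a log2 fold change of 0.55 and Mrpl46 of 1.04. Their sizes moved more, by over 1.5 times in 1 or more alternatives for each of the 10. Beside the values given above, Mrpl28 was at -0.25 within replicates 1 and 2, and with pseudocounts of 0.1 and 5 Mrpl24 was at -3.41 and -0.84 and Mrpl52 at 3.33 and 1.34. The median of all genes moved by -0.18 with FPKM as deposited, -0.13 with a common sum, -0.21 with quantile normalization and -0.12 without somatodendritic replicate 4, and 34, 37, 32 and 36 members then had fold changes above 0. Relative to all genes, with each library left out, the median ran from -0.18 to -0.02 for all members, from -0.09 to 0.08 for the large subunit and from -0.47 to -0.14 for the small subunit. The small subunit lay below the large one in all of these, but not within replicates 1 and 2. The difference of the sums then ran from -12.2 to 183.7 scaled FPKM. Depth limits all member values, most of all in somatodendritic replicate 4.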

Other observations

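Symbols of the Mrp form that the tables type as pseudogenes were outside the members and had values of like size. Mrpl48-ps was above 0 in all 12 libraries, at 19.6, 22.2, 22.5, 11.1, 35.2 and 32.3 scaled FPKM in axonal and 7.86, 8.50, 31.8, 26.1, 14.3 and 14.9 in somatodendritic replicates 1 to 6. Mrpl23-ps1 was above 0 in 10 libraries and Mrps36-ps2 in 11, with highest values of 20.6 and 19.6. The labels and headers do not state how reads were divided between a gene and its pseudogenes.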
